A study of Mus musculus with 8 samples.

Results

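Calcium cycling and excitation-contraction coupling, the machinery that turns the electrical signal of a heart muscle cell into contraction and lets it relax again, was described through 32 genes that were named by symbol. All 32 were found in a table of read counts for 37991 Ensembl genes, and 29 of them had enough reads to be tested among 12466 genes. The counts came from 8 RNA-seq libraries of cardiomyocytes isolated from adult mouse hearts, 4 of double colored and 4 of single colored cells. All 8 libraries came from mice carrying alpha-MHC MERCREMER and MADM, a genetic background in which the heart muscle promoter alpha-MHC drives a drug-inducible Cre recombinase and Cre-mediated exchange between chromosomes lights up 2 fluorescent reporters. All hearts, those of the double colored cells included, had been injected with adenovirus carrying 4 cell cycle genes, and cells were isolated 2 weeks later; no library of hearts without the virus was analysed here. Per the labels, single colored cells had gone through a cell cycle after the treatment with these genes, and double colored cells had received the same treatment without doing so. The labels give no age for the mice. They also do not call the 4 replicates of a group separate animals, so a p-value here speaks only to the spread among the libraries.

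In a ventricular cardiomyocyte the action potential opens voltage-gated L-type calcium channels in the surface membrane, and the calcium that enters opens ryanodine receptors of the sarcoplasmic reticulum, the cell's internal calcium store. The released calcium binds the contractile filaments, and relaxation follows as the pump SERCA2 returns calcium to the store, restrained by phospholamban, while the sodium-calcium exchanger and plasma membrane pumps carry the rest out of the cell. Some relatives of these proteins are better known from other muscle: sarcolipin from atria, calsequestrin 1 from skeletal muscle, and T-type calcium channels from pacemaker and fetal heart cells.

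The libraries held 23820700 to 30082278 assigned reads each. Mitochondrially encoded genes took 84.2% to 88.3% of the reads in double and 77.5% to 85.9% in single colored libraries, which left 3503353 to 3850391 and 3750616 to 6112595 reads for all other genes. Of 12 contractile marker genes of heart muscle listed, 11 had reads and Tnnc1 had 0 reads in all 8 libraries, for a reason that was not tested. The 11 were present in both groups. The alpha myosin heavy chain gene Myh6 measured 2413 to 3129 CPM (reads scaled to a common library total with TMM factors) in double and 1201 to 2725 CPM in single colored libraries. Of 10 macrophage and myeloid markers, 7 passed the test as higher in single colored cells (9 with the replicate number as a block), with summed levels of 239.9 to 419 CPM against 108 to 153 CPM, and all 7 tested of 10 lymphocyte markers passed, at 16.4 to 31.6 CPM against 1.59 to 4.43 CPM. Fibroblast markers summed to 622 to 1846 CPM in single and 299.9 to 737 CPM in double colored libraries, ranges that overlapped, with 1 of 8 higher by the test and 4 of 8 with the block. By fold change 6 of the 8 were higher in single colored cells and 2, Dcn and Tcf21, lower. Skeletal muscle markers summed to 0.418 to 1.19 CPM over the 8 libraries. One library stood apart. Single colored replicate 1 had the lowest summed level of the module, 2116 CPM against 3700.4 to 4183 CPM in the other single colored libraries and 3819.9 to 5328 CPM in the double colored ones. It was also the lowest in contractile genes, at 13842 CPM against 21482 CPM or more, and the highest in fibroblast markers, at 1846 CPM against 1044 CPM or less. These markers moved with the comparison of the groups, and their part in it was not tested.

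Across the module, no member passed the unpaired test between single and double colored cells. When libraries were paired by replicate number, 4 members passed as lower under TMM scaling. In the unpaired edgeR quasi-likelihood test 0 of 29 members had an adjusted p under 0.05. Of all genes tested, 2.48% did so in either direction and 0.160% as lower in single colored cells. At an unadjusted p under 0.05, 6 members (20.7%) were lower in single colored cells and 0 higher, against 6.10% of all genes that were lower and 9.02% that were higher. Of 11 contractile genes tested, 2 (18.2%) were lower and 0 higher by the same measure. The count of members rested on the fit. With library totals alone it was 0 lower and 4 higher (0.176% and 29.9% of all genes), and with libraries scaled by contractile genes 0 lower and 3 higher (0.249% and 19.8%). With the replicate block it was 15 lower (9.81% of all genes). With 1 library left out it ran from 3 lower (5.11% of all genes) to 13 lower (7.21%). The lowest count came without double colored replicate 2 and the highest without single colored replicate 3. The 6 were Pln, Casq1, Trdn, Hrc, Tmem38a and Cacna1h, of which all but Cacna1h encode proteins of the sarcoplasmic reticulum. limma-voom called 0 members and DESeq2 called 1, Casq1 (adjusted p = 0.0375), while DESeq2 called 4.46% of all genes in either direction. With the replicate number as a block, 4 members (13.8%) had an adjusted p under 0.05 as lower, namely Casq1, Hrc, Tmem38a and Pln. This compares with 2.57% of all genes and 1 of 11 contractile genes tested (9.09%). The labels do not say what a replicate number marks. The pairing rests on an id that the sample descriptions give to both libraries of a number, and on correlations between same-numbered libraries. The members called with the block changed in 2 fits that were added after the results were seen. Without both libraries numbered 1 they were Atp2a2, Hrc, Pln and Ryr2 (adjusted p = 0.0137, 0.00517, 0.00858 and 0.00817, edgeR), again 4 and all lower, against 1.30% of all genes, while Casq1 and Tmem38a had 0.0715 and 0.0558. With libraries scaled by contractile genes the block called no member as lower and 3 as higher, Atp2b1, Atp2b4 and Orai1 (adjusted p = 0.0118, 0.0206 and 0.0356, edgeR), against 15.6% of all genes.

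The direction of the module depended on how libraries were scaled: 24 of 29 members lay below 0 on the log2 scale (single over double colored) with TMM scaling, 6 of 29 with library totals alone, and 12 of 29 when libraries were scaled by the summed reads of 11 contractile genes. The members' median log2 fold change was -0.31 with TMM scaling, 0.17 with library totals alone and 0.051 with contractile gene scaling, while the median of all genes was -0.0053, 0.48 and 0.39. The members' median minus that of all genes was thus -0.31, -0.31 and -0.34 under the same scalings, and 50.6% of all genes lay below 0 with TMM scaling. The 11 contractile genes with reads, among them Myh6, Tnnt2 and Ttn, had a median of -0.34 with TMM scaling, close to the members' -0.31, and of 0.12 with library totals alone. In these bulk libraries, fewer cardiomyocytes and less of these RNAs per cardiomyocyte cannot be told apart. Summed over its 32 genes, the module took 2.58% to 3.27% of the reads outside mitochondrial genes in double and 1.59% to 2.63% in single colored libraries. Set against the summed contractile genes, it amounted to 16.3% to 19.96% in double and 15.3% to 17.2% in single colored libraries, so the groups overlapped by that measure.

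**Figure D1:**
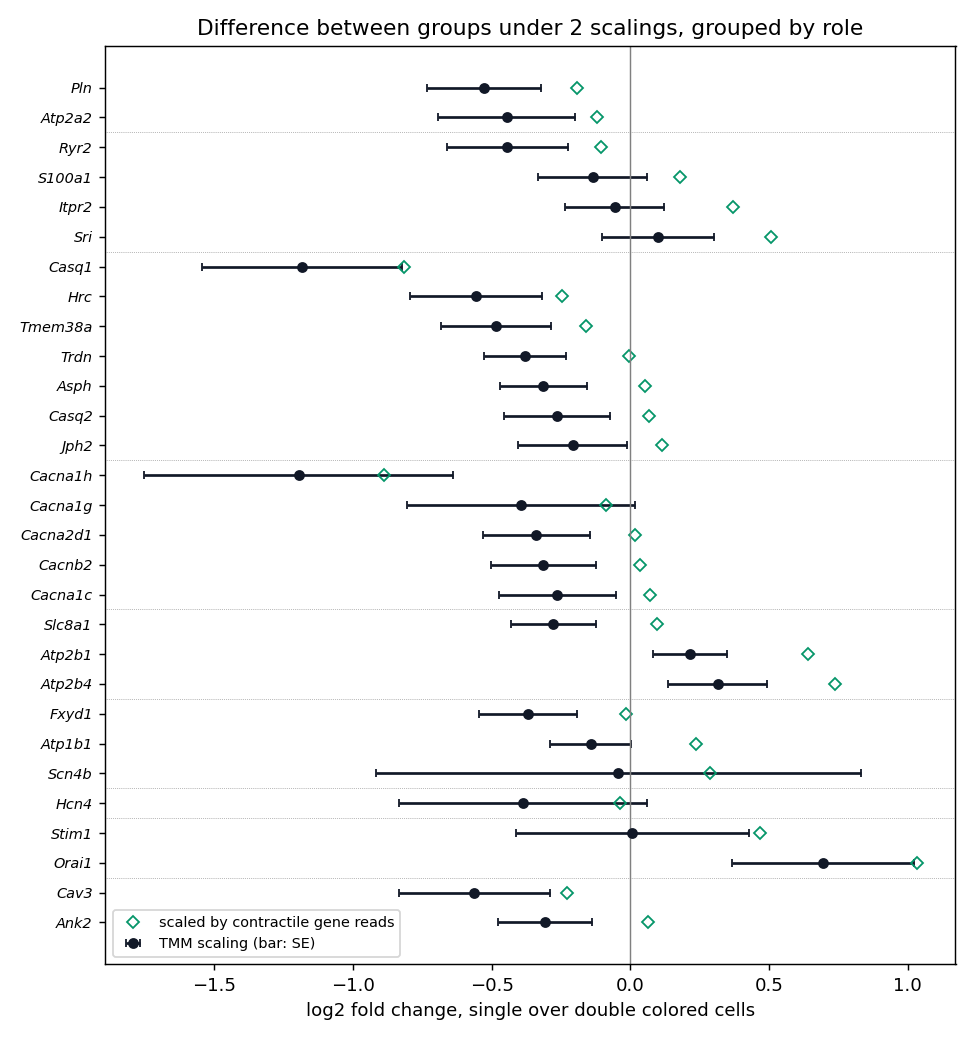
Log2 fold change of each tested member, single over double colored cells (horizontal axis), with members in rows grouped by role; filled circles with bars are the TMM-scaled values with their SE, and open diamonds are the values after scaling by contractile gene reads. With TMM scaling 24 of 29 members lie below 0, while with contractile gene scaling 12 of 29 do.

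Without single colored replicate 1, the library that stood apart, the members' median log2 fold change was -0.20 rather than -0.31, with 23 of 29 members below 0, and the median of the contractile genes was -0.20. The same omission took the log2 fold change of Atp2a2 from -0.45 to -0.25, of Ryr2 from -0.44 to -0.28, of Hrc from -0.56 to -0.34 and of Tmem38a from -0.48 to -0.30. It took Cacna1c from -0.26 to -0.11, Cacna2d1 from -0.34 to -0.20, Casq2 from -0.27 to -0.10, Jph2 from -0.21 to -0.041 and Fxyd1 from -0.37 to -0.24. In all 17 of 29 members moved by over 1.5 times or turned sign without this library, 16 of them toward or past 0, while Casq1 lay at -1.19. For 14 of 29 members (48.3%) single colored cells were lower in all 4 same-numbered pairs, against 13.7% of all genes and 8 of the 11 contractile genes (72.7%). The groups did not overlap, with every single colored library lower, for 3 members (10.3%), Pln, Trdn and Cav3, against 3.76% of all genes and 5 of the 11 contractile genes (45.5%).

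The most abundant transcripts of the module, per kilobase of exon, were those of the pump and its regulator. In double colored cells Atp2a2 stood at 336 ± 68.2 CPM per kilobase (mean ± SD, n = 4) and Pln at 323 ± 21.5, and their ranges of mean ± SD overlapped. Hrc followed at 133 ± 15.6, then Casq2 at 49.8 ± 5.93, Atp1b1 at 42.2 ± 2.27 and Ryr2 at 40.8 ± 6.79, 3 genes whose ranges of mean ± SD also overlapped. Fxyd1, Tmem38a, S100a1, Trdn and Slc8a1 lay between 10.9 and 37.8 CPM per kilobase, and the L-type channel subunits Cacna1c, Cacna2d1 and Cacnb2 between 4.49 and 8.47. Per kilobase the range of the pore gene Cacna1c thus overlapped that of the exchanger Slc8a1, and the release channel Ryr2 lay above both. Asph, Jph2, Atp2b1, Ank2, Cav3, Sri, Casq1 and Itpr2 lay between 1.51 and 3.83, and Atp2b4, Scn4b, Orai1, Stim1, Hcn4 and Cacna1g between 0.239 and 0.922. The T-type channel gene Cacna1h was the lowest, at 0.0777 ± 0.0337 CPM per kilobase.

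**Figure D2:**
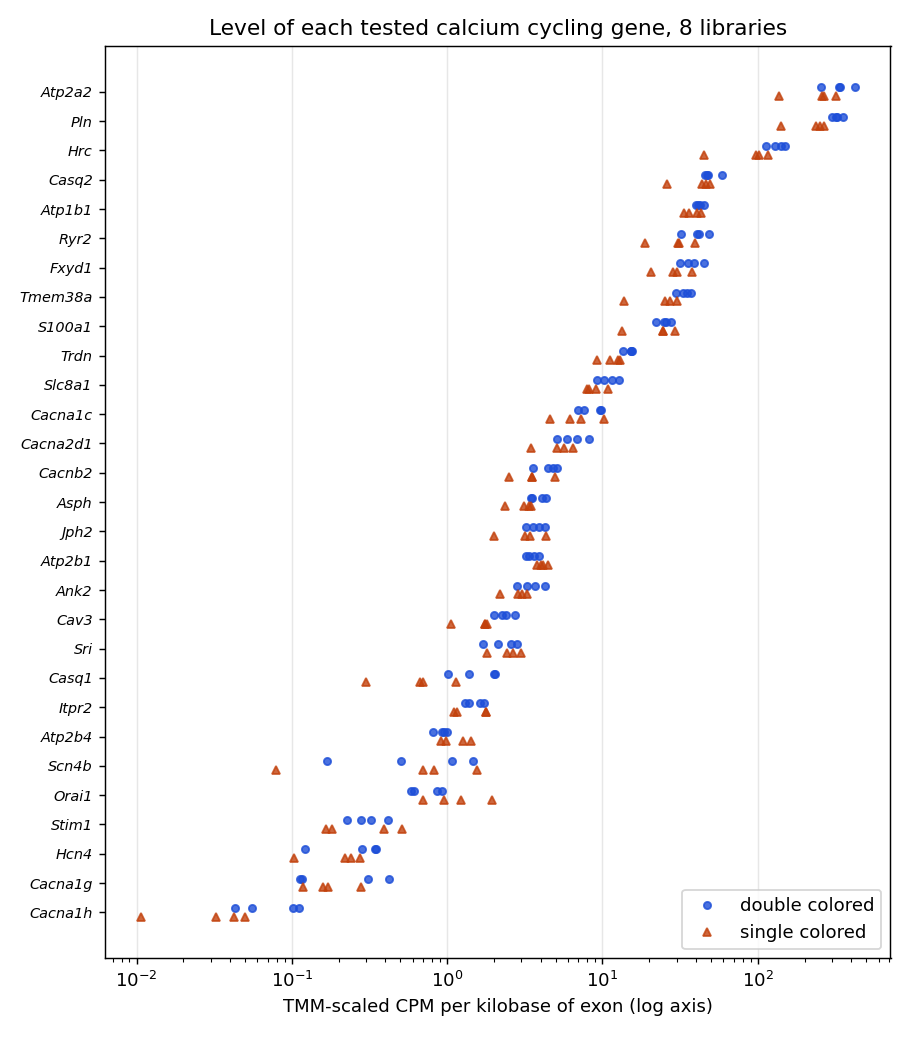
Level of each of the 29 tested members in TMM-scaled CPM per kilobase of exon (horizontal log axis), with circles for the 4 double and triangles for the 4 single colored libraries and genes ordered by their mean in double colored cells. Levels run from Atp2a2 at 336 down to Cacna1h at 0.0777 in double colored cells, and single colored replicate 1 is often the lowest point of its row.

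The pump genes came first among the roles. Pln encodes phospholamban, the small membrane protein that restrains SERCA2 until it is phosphorylated. It lies on chromosome 10, 53057492 to 53065805 in mm9, and measured 747, 787, 875 and 798 CPM in double colored replicates 1 to 4 and 351, 623, 588 and 663 CPM in single colored replicates 1 to 4. Every single colored library lay below every double colored one, and replicate 1 was the lowest of the single colored group. The log2 fold change was -0.53 ± 0.20 (SE) with an adjusted p of 0.218 by edgeR's quasi-likelihood test. With the replicate block it was -0.57 ± 0.16 (SE), adjusted p = 0.0366, in edgeR.

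Atp2a2, which encodes the SERCA2 pump itself, measured 1445, 1910.2, 2391 and 1883 CPM in double colored replicates 1 to 4 and 779, 1474, 1821 and 1524 CPM in single colored replicates 1 to 4. The single colored value was the lower one in all 4 same-numbered pairs, yet the groups overlapped because double colored replicate 1 was also low. Its log2 fold change of -0.45 ± 0.25 (SE) did not pass (adjusted p = 0.423, edgeR), had a 95% interval of -0.97 to 0.076, and was 0.0049 with library totals alone. As a ratio within each library, which no scaling can move, Pln gave 51.7, 41.2, 36.6 and 42.4 reads per 100 Atp2a2 reads in double colored replicates 1 to 4 and 44.99, 42.3, 32.3 and 43.5 in single colored replicates 1 to 4. The ranges overlapped, and the log2 ratio differed by -0.077 (exact permutation test over 70 groupings, two-sided, p = 0.657; adjusted over 6 ratios, 0.657). Sarcolipin, the atrial counterpart of phospholamban encoded by Sln, had 0, 7, 0 and 4 reads in double and 0 reads in each of the 4 single colored libraries and was not tested. A count of 0 there allows up to 3 reads, or 0.078 to 0.119 CPM, for counting error only. The atrial myosin light chain gene Myl7 ran beside it, at 0.173 to 2.45 CPM in double and 0 to 0.0349 CPM in single colored libraries. Myl7 was 1 of 8 atrial markers, which did not all run this way. Together they summed to 33.4 to 59.1 CPM in single and 19.998 to 42.7 CPM in double colored libraries, ranges that overlapped. Of the 5 tested, 3 had log2 fold changes below 0 with TMM scaling and 2, Nppa and Dkk3, above 0.

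Among the release channels and their regulators 3 of 4 tested members lay below 0 with TMM scaling, but 0 of 4 with library totals alone and 1 of 4 with contractile gene scaling. Ryr2, the ryanodine receptor through which the store empties at each beat, measured 585, 737, 887 and 757 CPM in double colored replicates 1 to 4 and 344, 569, 713 and 554 CPM in single colored replicates 1 to 4. Each single colored library was below its same-numbered double colored partner, while the group ranges overlapped. The log2 fold change was -0.44 ± 0.22 (SE) (adjusted p = 0.36, edgeR; with the replicate block 0.0532). S100a1, a calcium-binding protein that modulates both the release channel and the pump, had a log2 fold change of -0.14 ± 0.20 (SE) (adjusted p = 0.814, edgeR). Its values of 17.9, 17.2, 15.4 and 19.3 CPM in double and 9.29, 16.9, 20.3 and 17.01 CPM in single colored replicates overlapped, and single colored replicate 1 was the lowest. Itpr2, an inositol trisphosphate receptor, and Sri, which encodes the release channel regulator sorcin, had log2 fold changes of -0.057 and 0.099, smaller than their standard errors. Fkbp1b, whose product calstabin 2 binds the closed ryanodine receptor, had 6, 3, 0 and 0 reads in double and 13, 9, 14 and 2 in single colored replicates and was not tested. Counts this low gave no usable ratio to Ryr2.

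The proteins of the sarcoplasmic reticulum lumen and of its junction with the surface membrane formed the role with the most members tested, 7. Of these, 4 were lower at an unadjusted p under 0.05 in the unpaired edgeR test. By the same measure 6.10% of all genes and 2 of 11 contractile genes were lower. All 7 tested members of the role lay below 0 with TMM scaling, 3 of 7 with library totals alone and 4 of 7 with contractile gene scaling. Casq1, the calsequestrin best known as the calcium store protein of skeletal muscle, had the smallest p of the module. It lies on chromosome 1, 174140025 to 174150026 in mm9, and had 95, 89, 63 and 48 reads in double and 53, 65, 51 and 15 reads in single colored replicates 1 to 4. This came to 3.97, 4.04, 2.72 and 2.004 CPM in double and 1.39, 2.27, 1.33 and 0.595 CPM in single colored cells, lower in all 4 pairs although the ranges overlapped.

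The Casq1 log2 fold change was -1.18 ± 0.36 (SE), a level 2.27 times as high in double as in single colored cells. Its adjusted p was 0.106 by edgeR's quasi-likelihood test, 0.00911 with no filter on low counts and 0.0467 without single colored replicate 2; with the replicate block the change was -1.25 ± 0.28 (SE), adjusted p = 0.00998. With limma-voom the adjusted p was 0.116. The change lay closer to 0 under other scalings, -0.69 with library totals alone and -0.82 with contractile gene scaling (adjusted p = 0.216 and 0.285, edgeR). The median of all genes was 0.48 and 0.39 under these scalings, against -0.0053 with TMM scaling. The authors' deposited table, which gives fold changes as double over single, lists Casq1 at 1.20 on the log2 scale with a p of 0.0122 and an FDR of 0.351, the smallest p of any member there. Of its exon bases 7.9% overlap the gene Gm17224 on the opposite strand, and no source used here says whether counting used strand. Skeletal muscle markers summed to no more than 1.19 CPM in any library. Casq2, the calsequestrin of heart muscle, had 49.8 CPM per kilobase in double colored cells against 1.61 for Casq1, and a log2 fold change of -0.27 ± 0.19 (SE) (adjusted p = 0.569, edgeR). Casq2 gave 22.4, 21.8, 14.1 and 16.99 reads per 100 Ryr2 reads in double and 20.7, 23.6, 17.9 and 21.7 in single colored replicates. Those ranges overlapped (log2 difference 0.18, exact permutation test, two-sided, p = 0.371; adjusted 0.557).

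Hrc encodes the histidine-rich calcium-binding protein of the store's lumen. It measured 272, 359.6, 339 and 313 CPM in double colored replicates 1 to 4 and 108, 282, 247 and 235 CPM in single colored replicates 1 to 4. Single colored replicate 1 was the lowest of the 8 libraries, and the ranges overlapped only because single colored replicate 2 lay above double colored replicate 1. The log2 fold change was -0.56 ± 0.24 (SE) (adjusted p = 0.275, edgeR), and -0.63 ± 0.16 (SE), adjusted p = 0.0202 in edgeR with the replicate block. Tmem38a, a monovalent cation channel (TRIC-A) that balances charge as calcium leaves the store, measured 62.5, 73.6, 77.5 and 68.9 CPM in double colored replicates 1 to 4 and 28.9, 63.4, 56.7 and 52.97 CPM in single colored replicates 1 to 4. All 4 pairs were lower in single colored cells, and the log2 fold change was -0.48 ± 0.20 (SE) (adjusted p = 0.256, edgeR) and -0.54 ± 0.14 (SE), adjusted p = 0.0234 with the block.

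Trdn encodes triadin, which tethers calsequestrin to the ryanodine receptor. It measured 62.8, 70.8, 70.2 and 70.3 CPM in double colored replicates 1 to 4 and 42.4, 57.6, 51.1 and 59.7 CPM in single colored replicates 1 to 4, so that the groups did not overlap and the double colored libraries were close to each other. Its log2 fold change was -0.38 ± 0.15 (SE) (adjusted p = 0.225, edgeR; with the replicate block 0.0516), and with contractile gene scaling it was -0.0044. Asph, whose locus encodes junctin, had a log2 fold change of -0.31, and 14.7% of its exon bases overlap genes on the opposite strand. Jph2, junctophilin 2, which holds the store close to the surface membrane, had one of -0.21. Neither passed the test (adjusted p = 0.369 and 0.69, edgeR).

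**Figure D3:**
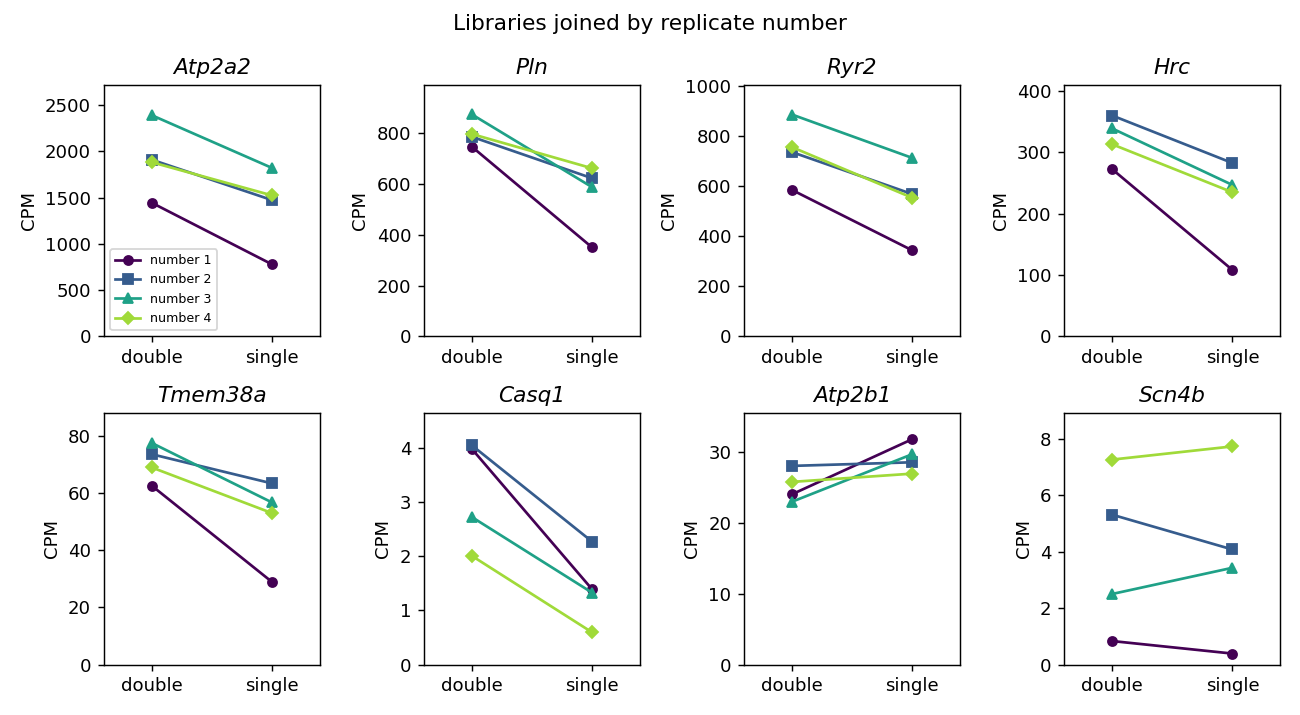
Level in TMM-scaled CPM (vertical axes from 0) of 8 members in double and single colored libraries, with a line and marker for each replicate number. The lines of Atp2a2, Pln, Ryr2, Hrc, Tmem38a and Casq1 all slope down from double to single under this scaling. With library totals alone Atp2a2 and Ryr2 differ by 0.0049 and 0.021 on the log2 scale, where the median of all genes is 0.48. The lines of Atp2b1 slope up and those of Scn4b stay apart by number.

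Promoter sequences are shown for Pln, Casq1 and Hrc, 3 of the 4 members past the threshold with the replicate block, to let the upstream sequence be read beside the values; they were chosen after those values were seen. They are the 250 bases before the start in RefSeq, build GRCm38.p6, printed 5′ to 3′ on the gene's strand. Capitals mark matches on either strand to TATAAA, to CANNTG (an E-box) or to GATA preceded by A or T and followed by A or G; the motif named MEF2 site was also searched and had no match here, and no 2 matches overlapped.
Pln (chr10:53337436-53337685, plus strand): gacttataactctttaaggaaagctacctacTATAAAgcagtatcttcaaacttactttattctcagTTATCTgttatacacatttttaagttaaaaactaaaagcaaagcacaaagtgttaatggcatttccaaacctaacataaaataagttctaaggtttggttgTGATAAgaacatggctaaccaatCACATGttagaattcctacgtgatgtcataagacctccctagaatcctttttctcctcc
Casq1 (chr1:172219896-172220145, minus strand): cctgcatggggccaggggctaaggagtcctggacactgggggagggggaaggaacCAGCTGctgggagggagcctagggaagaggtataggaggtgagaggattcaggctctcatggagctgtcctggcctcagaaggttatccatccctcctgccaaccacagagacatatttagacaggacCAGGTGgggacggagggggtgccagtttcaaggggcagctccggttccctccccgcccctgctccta
Hrc (chr7:45335019-45335268, plus strand): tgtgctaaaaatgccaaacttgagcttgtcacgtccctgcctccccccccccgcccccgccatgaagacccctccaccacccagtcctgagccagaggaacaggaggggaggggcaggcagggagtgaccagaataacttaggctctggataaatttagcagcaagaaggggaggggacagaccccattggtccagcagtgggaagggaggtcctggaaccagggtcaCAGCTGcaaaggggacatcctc
Pln held 1 TATAAA well upstream, 2 GATA matches and 1 E-box, Casq1 held 2 E-boxes, and Hrc held 1. The nearest GENCODE transcript start lay 27 bases downstream of the RefSeq start for Casq1 and 21 for Hrc. For Tmem38a it lay 232 bases downstream, so its window is not shown. Over 32851 windows of the same length, 12.4% held a TATAAA, 66.2% an E-box, 26.5% a GATA match and 2.92% a MEF2 site. Over the 34 windows of the 26 members found in the table, the shares were 5.88%, 64.7%, 17.6% and 2.94%.

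All 5 voltage-gated calcium channel genes lay below 0 with TMM scaling, but 1 of 5 with library totals alone and 2 of 5 with contractile gene scaling. Cacna1c, the pore of the L-type channel that triggers release, had a log2 fold change of -0.26 ± 0.21 (SE) (adjusted p = 0.624, edgeR). Its auxiliary subunits Cacna2d1 and Cacnb2 lay close by at -0.34 ± 0.19 (SE) and -0.31 ± 0.19 (SE) (adjusted p = 0.435 and 0.465, edgeR). For Cacna2d1 the values were 42.8, 68.97, 57.6 and 49.9 CPM in double colored replicates 1 to 4 and 29.1, 54.01, 47.2 and 42.98 CPM in single colored replicates 1 to 4, lower in single colored cells in all 4 pairs with overlapping ranges. Set against the release channel, Cacna1c gave 10.4, 9.05, 9.76 and 11.2 reads per 100 Ryr2 reads in double and 11.8, 9.53, 12.6 and 11.5 in single colored replicates. The ratio was higher in single colored cells in 4 of 4 pairs by 0.17 on the log2 scale, with overlapping ranges and a two-sided exact permutation p of 0.171 (adjusted 0.457). Within the pairs the exact sign-flip test gave p = 0.125, the smallest that 4 pairs allow.

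The T-type channel genes Cacna1h and Cacna1g were scarce. Cacna1h had 70 reads in the 4 double and 42 in the 4 single colored libraries, or 0.418, 1.09, 0.993 and 0.543 CPM in double colored replicates 1 to 4 and 0.105, 0.488, 0.416 and 0.317 CPM in single colored replicates 1 to 4. It was lower in single colored cells in each pair, and the ranges overlapped at 0.418 to 0.488 CPM. The log2 fold change of -1.20 ± 0.56 (SE) was the largest of the module in size and among the least precise, with a 95% interval of -2.38 to -0.018 (adjusted p = 0.321, edgeR). Cacna1g had -0.39 ± 0.41 (SE) (adjusted p = 0.726, edgeR), and was lower in 2 of 4 pairs.

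**Figure D4:**
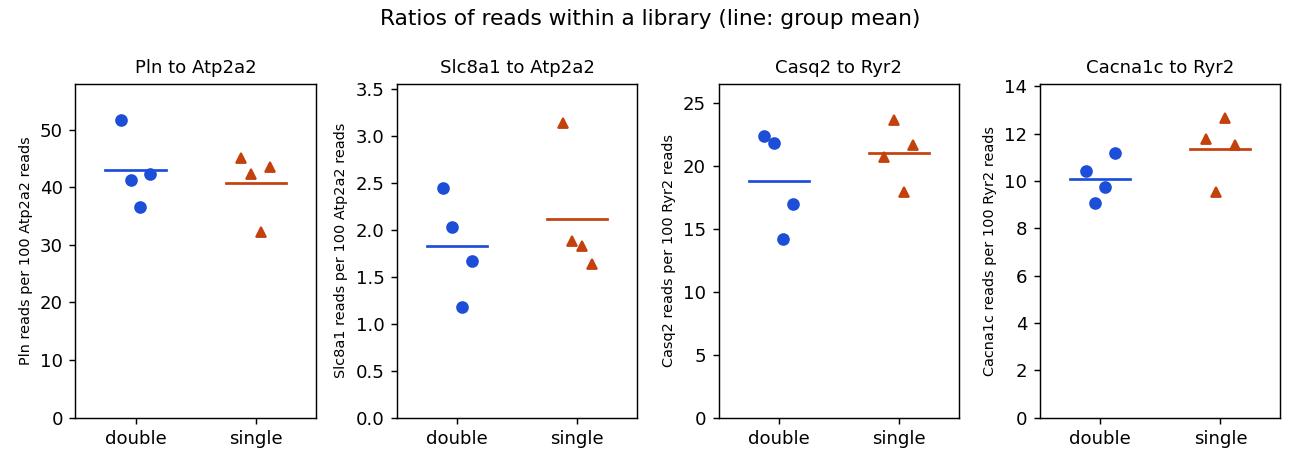
Reads of one member per 100 reads of another within each library (vertical axes from 0), for 4 ratios, with circles for double and triangles for single colored libraries and a line at each group mean. The ranges of the groups overlap in all 4 panels.

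Of the 3 calcium extrusion genes, the sodium-calcium exchanger and the plasma membrane pumps lay on opposite sides of 0 with TMM scaling, while with library totals alone and with contractile gene scaling all 3 lay above 0. Slc8a1, the exchanger, measured 35.3, 38.9, 28.1 and 31.5 CPM in double colored replicates 1 to 4 and 24.5, 27.7, 33.3 and 24.98 CPM in single colored replicates 1 to 4, and had a log2 fold change of -0.28 ± 0.15 (SE) (adjusted p = 0.419, edgeR). Atp2b4, a plasma membrane calcium pump, measured 8.66, 8.94, 7.30 and 8.39 CPM in double colored replicates 1 to 4 and 11.4, 12.8, 8.92 and 8.25 CPM in single colored replicates 1 to 4. Single colored cells were higher in 3 of 4 pairs, at 0.31 ± 0.18 (SE) (adjusted p = 0.439, edgeR). The related pump Atp2b1 was higher in all 4 pairs, at 0.21 ± 0.13 (SE) (adjusted p = 0.486, edgeR), from 24.01, 28.01, 22.97 and 25.8 CPM in double to 31.8, 28.5, 29.7 and 26.9 CPM in single colored replicates. With library totals alone, Atp2b1, Atp2b4 and Orai1 passed as higher in single colored cells (adjusted p = 0.0453, 0.0423 and 0.0297, edgeR), a scaling under which 11.0% of all genes did. Slc8a1 gave 2.45, 2.04, 1.18 and 1.68 reads per 100 Atp2a2 reads in double and 3.14, 1.88, 1.83 and 1.64 in single colored replicates, ranges that overlapped (log2 difference 0.21, exact permutation test, two-sided, p = 0.514; adjusted 0.617).

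Sodium handling sets the gradient on which the exchanger runs, and its 3 members lay below 0 with TMM scaling but above 0 with library totals alone, and 1 of 3 below 0 with contractile gene scaling. Fxyd1, phospholemman, which restrains the sodium pump much as phospholamban restrains SERCA2, measured 25.2, 31.9, 22.5 and 27.6 CPM in double colored replicates 1 to 4 and 14.6, 26.7, 21.4 and 20.1 CPM in single colored replicates 1 to 4. It was lower in single colored cells in all 4 pairs, at -0.37 ± 0.18 (SE) (adjusted p = 0.337, edgeR). Atp1b1, the beta subunit of that pump, differed by -0.14 ± 0.15 (SE) (adjusted p = 0.719, edgeR), with 96.3, 100.3, 103 and 109 CPM in double and 80.8, 86.8, 105 and 98.3 CPM in single colored replicates. Scn4b, a beta subunit of the cardiac sodium channel, was ordered by replicate number rather than by group. It measured 0.837, 5.31, 2.504 and 7.26 CPM in double colored replicates 1 to 4 and 0.393, 4.08, 3.43 and 7.73 CPM in single colored replicates 1 to 4, so number 1 was lowest and number 4 highest in both groups. Its log2 fold change of -0.044 ± 0.87 (SE) had a 95% interval of -2.10 to 2.02, and the SE was 0.25 with the replicate block.

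Pacemaker channels were close to the limit of these libraries. Hcn4, the main channel of sinoatrial pacemaking, measured 0.460, 1.32, 1.08 and 1.29 CPM in double colored replicates 1 to 4 and 0.393, 1.05, 0.910 and 0.833 CPM in single colored replicates 1 to 4, lower in all 4 pairs with overlapping ranges. Its log2 fold change was -0.39 ± 0.45 (SE) (adjusted p = 0.76, edgeR), and 0.058 with library totals alone. Hcn2, another channel of this family, had 6, 12, 6 and 9 reads in double and 9, 12, 6 and 2 reads in single colored replicates and was not tested.

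Store-operated entry refills an emptied store through Orai1, a surface membrane channel, when Stim1 senses low calcium inside the store. Orai1 had the highest positive log2 fold change of the module, 0.69 ± 0.33 (SE) (adjusted p = 0.331, edgeR), from 1.97, 1.41, 1.34 and 2.13 CPM in double colored replicates 1 to 4 and 2.20, 1.60, 4.45 and 2.82 CPM in single colored replicates 1 to 4. Single colored replicate 3 was the highest, and without it the log2 fold change was 0.35. Stim1 had a log2 fold change of 0.0072 ± 0.42 (SE) with a 95% interval of -0.88 to 0.90, which does not show that the groups were alike.

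Both membrane scaffolds lay below 0 with TMM scaling, and 1 of the 2, Cav3, did so with library totals alone and with contractile gene scaling. Cav3, caveolin 3, which shapes the caveolae and transverse tubules of muscle, measured 2.76, 2.63, 3.15 and 2.34 CPM in double colored replicates 1 to 4 and 1.23, 2.02, 2.11 and 2.02 CPM in single colored replicates 1 to 4. The groups did not overlap, and the log2 fold change was -0.56 ± 0.27 (SE) (adjusted p = 0.343, edgeR). Ank2, ankyrin B, which anchors the exchanger and the sodium pump, measured 48.2, 56.7, 63.8 and 73.7 CPM in double and 37.6, 48.99, 56.5 and 52.5 CPM in single colored replicates, at -0.31 ± 0.17 (SE) (adjusted p = 0.417, edgeR). Over all the settings in which they were tested, 9 members kept the sign of their log2 fold change: Pln, Casq1, Hrc, Tmem38a, Cacna1h and Cav3 below 0, and Atp2b1, Atp2b4 and Orai1 above 0. Of these, Casq1, Cacna1h, Cav3 and Orai1 were not tested with the filter at 5 CPM. The other scalings raised the median of all genes to between 0.37 and 0.48. They therefore could not test the sign of Atp2b1, Atp2b4 and Orai1, which were above 0 already. The share of all genes that kept their sign was not counted. A kept sign did not mean a kept distance from 0. With library totals alone Tmem38a lay at -0.046, Pln at -0.091, Cav3 at -0.11 and Hrc at -0.12 (adjusted p from 0.747 to 0.907, edgeR). With TMM scaling these 4 lay at -0.48 to -0.56. The median of all genes moved as well, from -0.0053 with TMM scaling to 0.48 with library totals alone.

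The wider pathway was read from 71 further genes of calcium and sodium handling found in the table, of which 50 were tested. Of these, 1 passed the edgeR test as higher in single colored cells and 0 as lower, and their median log2 fold change was -0.072. Of all 12466 genes tested, 289 passed as higher and 20 as lower. The gene that passed was Fxyd5, dysadherin, a relative of phospholemman that is better known from epithelia and other non-muscle cells. It measured 7.78, 7.67, 5.22 and 4.43 CPM in double colored replicates 1 to 4 and 19.6, 15.6, 13.7 and 11.3 CPM in single colored replicates 1 to 4, with no overlap between groups, and rose by 1.27 ± 0.22 (SE) on the log2 scale (adjusted p = 0.00474). It also passed without each of the 8 libraries in turn. The summed macrophage and lymphocyte markers given above were also higher in every single colored library than in any double colored one, while the fibroblast sums overlapped. The part of these markers in the Fxyd5 difference was not tested.

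The 6 further genes of smallest p were split in direction with TMM scaling, and none passed under that scaling. Calr, the store protein calreticulin, lay at 0.47 ± 0.16 (SE), Cacnb1, a calcium channel beta subunit, at 1.08 ± 0.38 (SE), and Atp1b3, a sodium pump subunit, at 0.40 ± 0.15 (SE). Ank3, ankyrin G, lay at -0.37 ± 0.16 (SE), Ppp1r3a, a glycogen-targeting subunit of protein phosphatase 1, at -0.43 ± 0.18 (SE), and Orai3, a relative of Orai1, at -0.54 ± 0.25 (SE). Their adjusted p by edgeR ran from 0.155 to 0.308. With library totals alone Calr, Cacnb1 and Atp1b3 passed as higher in single colored cells (adjusted p = 0.00889, 0.0260 and 0.0137, edgeR), as did 11.0% of all genes. Under that scaling Ank3 and Ppp1r3a lay at 0.11 and 0.030, above 0. With the replicate block, Ppp1r3a (adjusted p = 0.0276) and Rrad, an inhibitor of L-type channels (-0.63 ± 0.15 (SE), adjusted p = 0.0119), passed in edgeR as lower in single colored cells. They were 4% of the pathway genes tested, against 2.57% of all genes.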

How the data were processed

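RNA was measured in 8 libraries, 4 per group, made with an amplifying kit for small amounts of RNA, per the labels. The submitters' processing notes name the build mm9 and the tools STAR (version 2.5.2b), Subread and featureCounts; per the file headers, alignments were restricted to a mapping quality of 30. The table the authors deposited holds whole raw read counts per gene, not estimated counts, and nothing was rounded. It also holds log2 fold changes and p-values that the authors deposited from a test not given in the sources used here, and 24 further columns of per-sample values that were not used. Symbols came from GENCODE vM21 through Ensembl identifiers, and exon lengths and overlaps came from the coordinates of the table.

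Counts of all genes were tested with edgeR 4.0.16 in R 4.3.3 (filterByExpr with a minimum count of 10, TMM scaling, robust quasi-likelihood F-test, Benjamini-Hochberg adjustment at 0.05 over 12466 genes). The standard error was derived from the F statistic, and the test was tried on simulated data. Alternatives used DESeq2 1.42.0, limma 3.58.1, other scalings and filters, a replicate block, and left-out libraries. Ratios of reads used log2 of counts plus 0.5, an exact two-sided permutation test over 70 groupings (smallest p 0.0286) and adjustment over 6 ratios.

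Both groups carry the replicate numbers 1 to 4. After subtraction of group means, libraries of the same number correlated across genes by 0.257, 0.126, 0.136 and 0.139. As each exceeded 0.1, numbers were treated as pairs in the fits with a replicate block, the counts of same-numbered pairs and the sign-flip tests. The main edgeR test was unpaired. However, 1 combination of different numbers also reached 0.108. The sample descriptions give same-numbered libraries a shared id.

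Full statistics are given for members past the threshold or, failing that, for the 2 of smallest p in each role, and for pathway genes past the threshold plus the 6 of smallest p. The members, marker lists and pathway list were chosen with earlier results of these data known. Of 72 pathway genes listed, 71 were matched to the table.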

Additional observations from a re-analysis of the deposited data

Results flagged for a closer look

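In 58 groups of 4 libraries, 1 for each tested member and group, the highest or lowest library was compared with the gap to its nearest neighbor; this marks about 1 in 20 groups by chance, and it marked 3. Casq2, cardiac calsequestrin, stood at 160 CPM in double colored replicate 2, above the 125 to 131 CPM of the other double colored libraries. Trdn, triadin, stood at 62.8 CPM in double colored replicate 1, below the 70.2 to 70.8 CPM of the others. Cav3, caveolin 3, stood at 1.23 CPM in single colored replicate 1, below the 2.02 to 2.11 CPM of the others. For Cav3 this is the library lowest in the whole module and in contractile genes.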

How the results depend on the processing

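Scaling moved the module's values more than any other choice tried, and it moved those of all genes too. The median of all genes was 0.48 with library totals alone and 0.39 with contractile gene scaling, against -0.0053 with TMM scaling. With library totals alone 3 members, 5 other pathway genes and 1378 genes in all were called, and the members' median log2 fold change was 0.17. With contractile gene scaling the median was 0.051, and with the geometric mean of those genes, an alternative chosen after seeing the data, 0.070; no member was called under either. DESeq2 called 1 member and 556 genes in all, the fit with no low-count filter 1 member, 2 other pathway genes and 805 genes, and the filter at 5 CPM 97 genes. The replicate block called 4 members, 3 other pathway genes and 939 genes, against 309 without it. It also called 9 macrophage and myeloid and 4 fibroblast markers rather than 7 and 1, and 1 contractile gene rather than 0, and changed no other call reported here. With the block, 2 fits chosen after seeing the data were added: without both libraries numbered 1 it called 4 members, 2 other pathway genes and 523 genes, and with contractile gene scaling 3 members, 8 other pathway genes and 1954 genes, at a members' median of 0.065. Without single colored replicate 2, 1 member was called, and with every other library left out in turn none was. Over the 8 libraries left out in turn the count over all genes ran from 134 to 304, that of members from 0 to 1, and the members' median from -0.39 to -0.20. Without both libraries numbered 1, 146 genes and 0 members were called. The differences in log2 ratio of Pln to Atp2a2 ran from -0.15 to 0.031 over the left-out libraries, turning sign where double colored replicate 1 (0.017) or single colored replicate 3 (0.031) was left out. No ratio passed the threshold in any of these settings. The block by sign flips gave p from 0.125 to 0.5, and it could not pass, as 0.125 is the smallest p that 4 pairs allow. Where a setting moved a value, the cause was not tested.

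Log2 fold changes of single genes that turned sign were, with library totals alone, Atp2a2 0.0049, Ryr2 0.021, Itpr2 0.49, S100a1 0.33, Casq2 0.20, Trdn 0.075, Asph 0.16, Jph2 0.26, Cacna1c 0.22, Cacnb2 0.17, Cacna2d1 0.12, Cacna1g 0.19, Slc8a1 0.24, Scn4b 0.33, Fxyd1 0.096, Atp1b1 0.34, Hcn4 0.058, Ank2 0.16, Ank3 0.11 and Ppp1r3a 0.030. With contractile gene scaling they were Itpr2 0.37, S100a1 0.18, Casq2 0.066, Asph 0.051, Jph2 0.11, Cacna1c 0.072, Cacnb2 0.034, Cacna2d1 0.015, Slc8a1 0.094, Scn4b 0.29, Atp1b1 0.24 and Ank2 0.064, and with the geometric mean Itpr2 0.42, S100a1 0.20, Casq2 0.082, Trdn 0.015, Asph 0.070, Jph2 0.14, Cacna1c 0.090, Cacnb2 0.050, Cacna2d1 0.024, Slc8a1 0.13, Scn4b 0.22, Fxyd1 0.00076, Atp1b1 0.26, Ank2 0.080 and Ank3 0.0082. Stim1 turned to -0.092 with the replicate block and to -0.074 with limma-voom. Without both libraries numbered 1 they were S100a1 0.065, Cacna1g 0.091, Scn4b 0.0058 and Stim1 -0.17, and with the block added S100a1 0.066, Cacna1g 0.16, Scn4b 0.047 and Stim1 -0.30. With the block and contractile gene scaling they were Itpr2 0.29, S100a1 0.19, Casq2 0.073, Asph 0.051, Jph2 0.12, Cacna1c 0.066, Cacnb2 0.030, Cacna2d1 0.020, Cacna1g 0.11, Slc8a1 0.095, Scn4b 0.21, Atp1b1 0.22 and Ank2 0.065. With 1 library left out, Itpr2 ran from -0.17 to 0.042, Sri from -0.025 to 0.21, S100a1 from -0.29 to 0.046, Cacna1g from -0.69 to 0.026, Scn4b from -0.61 to 0.42 and Stim1 from -0.33 to 0.20. Depth limits the scarce members: Sln, Fkbp1b and Hcn2 were not tested, and Cacna1h, with 70 reads in double and 42 in single colored libraries, had a standard error of 0.56 on the log2 scale.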
